A study of Bos taurus with 81 samples.

Results

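The regions described here are the 5 kb stretches of cattle autosomes that lay under H3K27me3 peaks in oocytes and in every embryo group grown without inhibitor. The 29 autosomes were divided into 497623 bins of 5 kb counted from the first base, and a bin was called marked in a peak list where at least 50% of its bases lay under peaks. Bins marked in all 16 H3K27me3 lists of the 8 control groups were kept. There were 1941 such bins, 0.390% of all, and together they made up 9.705 Mb. The H3K27me3 lists of these groups chose the bins, so H3K27me3 values in them are given as a description without a test.

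H3K27me3, trimethylation of lysine 27 of histone H3, is deposited by Polycomb repressive complex 2 and is known for silencing developmental genes. H3K4me3 is found at active and poised promoters, H3K27ac at active promoters and enhancers, and H3K9me3 in constitutive heterochromatin and over silenced repeats. In mammalian oocytes and early embryos these marks are known to take unusual forms, with broad H3K4me3 domains in oocytes and a rebuilding of Polycomb domains after fertilisation.

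The study profiled bovine oocytes and in vitro produced embryos by CUT&Tag and ATAC-seq; both use a transposase, which an antibody brings to a histone mark in CUT&Tag and which cuts open chromatin unguided in ATAC-seq. CUT&Tag covered H3K4me3, H3K27ac, H3K27me3 and H3K9me3 with 2 libraries per mark and group, and ATAC-seq covered 3 groups with 3 libraries each, 81 libraries in all. Control material comprised oocytes at the germinal vesicle stage (GV), embryos of 2, 4 and 8 cells (2C, 4C and 8C) collected 32, 44 and 56 h after insemination, morulae (MO, 122 h), whole blastocysts (BL, 172 h), and 2 parts of the blastocyst, its inner cell mass (ICM) and its trophectoderm (TE). A further group (8A) held embryos collected at 56 h after culture in medium holding α-amanitin at 50 μg/ml; this toxin inhibits RNA polymerase II. 8A took no part in the choice of bins. ATAC-seq libraries came from BL, ICM and TE. Each library pooled zona-free material, about 500 oocytes or 1000 to 1500 blastomeres, so a value is an average over many embryos and says nothing of single cells. ICM was prepared by immunosurgery and TE was cut off by hand, and each could hold cells of the other.

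The deposited lists hold peak positions and no library totals, so sequencing depth is unknown and a mark below the authors' threshold cannot be told apart from an absent mark. The H3K27me3 lists covered 4.42% (2C replicate 1) to 11.3% (BL replicate 2) of the autosomes, and that replicate of 2C had the shortest covered length. Of the 990 bins marked in 15 of the 16 lists, 318 (32.1%) were missing only from that 2C list. Without 2C replicate 1 the number of bins kept was 2259.

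Most oocyte H3K27me3 bins dropped out of the set by the 2-cell group. GV alone had 37727 bins marked in both lists, of which 6979 were also marked in both 2C lists. Adding 4C left 4574 bins, 8C 3914, MO 2399, BL 2161, ICM 1990 and TE 1941. The kept bins were 3.89% (BL) to 11.1% (2C) of the bins that each group marked in both of its lists. Their margin over the 50% threshold varied. The lowest cover over the 16 lists had a median of 76%, was under 60% in 265 bins (13.7%), and 481 bins (24.8%) were wholly covered in every list.

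The rule asks for covered bins in every list and so favours wide peaks. The peaks touching kept bins had a median width of 8 kb (2C replicate 1) to 27.7 kb (BL replicate 1) over the 18 lists. Peaks that touched only other bins marked in both lists of the group had medians of 6 kb (2C replicate 1) to 10.2 kb (ICM replicate 2), below the first kind in each list. The peaks touching kept bins were 3.29% to 8.26% of the peaks of a list and 9.61% to 17.6% of its covered length.

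The 8A lists, not used in the choice, held nearly all of the kept bins. In 8A replicate 1, 1899 of the 1941 bins were marked (97.8%), and in 8A replicate 2, 1913 were marked (98.6%). Both lists marked 1884 bins (97.1%), 1 list marked 44 and neither list marked 13. The same call was made for 4.94% of all autosomal bins. Among the 20531 other bins marked in both 8C lists, 76.7% were marked in both 8A lists and 9.67% in neither. Among the 990 bins just outside the rule, marked in 15 of 16 control lists, 91.4% were marked in both 8A lists.

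Each control group was also treated as if it had taken no part, by choosing bins from the other 7 groups. With 8C left out, 2096 bins were chosen, of which 8C marked 92.6% and 8A marked 95.6% in both lists. With the other groups left out in turn, the share marked in both lists of the left-out group was lowest for 2C (76.1% of 2552 bins), followed by MO (86.7% of 2240), GV (87.2% of 2227), 4C (90.5% of 2144), ICM (93.0% of 2088), TE (97.5% of 1990) and BL (99.6% of 1948). For every one of these 8 choices the 8A share in both lists lay between 95.6% and 97.1%. The single 2C lists differed, at 79.2% in replicate 1 and 88.5% in replicate 2. BL was made of the same parts as ICM and TE, so its high share was measured beside 2 groups of related material.

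**Figure D1:**
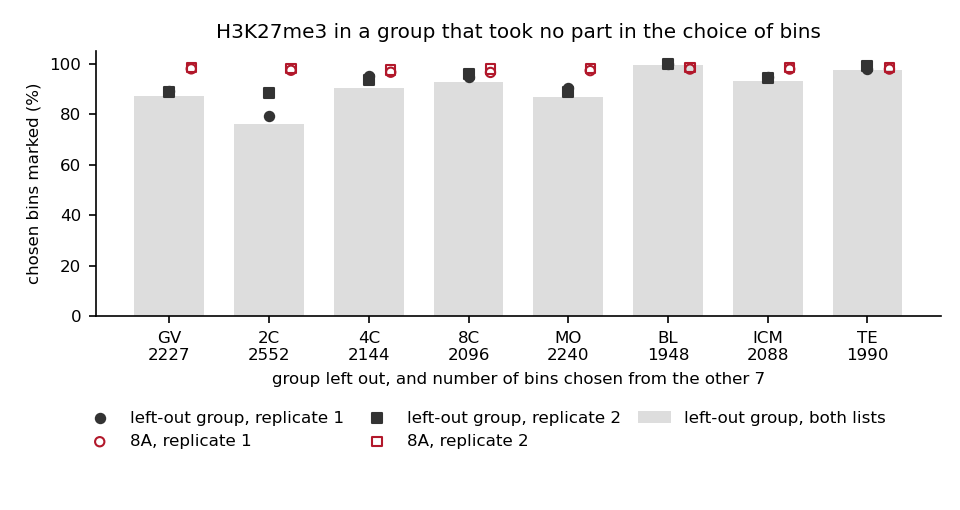
Share of bins (y axis, %) marked by H3K27me3 in a group that was left out when bins were chosen from the other 7 control groups (x axis, with the number of bins chosen); bars give both lists, filled symbols each library of the left-out group, and open symbols each 8A library. The 2C bar is lowest at 76.1%, the BL bar highest at 99.6%, and the 8A libraries lie above 96% throughout.

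The 13 bins unmarked in both 8A lists were scattered over 10 chromosomes in 11 runs, and 7 of them had no H3K27me3 base in either 8A list. The longest stretches were 2 pairs of bins, on chromosome 5 at 76090001 to 76100000 and on chromosome 6 at 5445001 to 5455000. On chromosome 6, the bins had 16% and 12% H3K27me3 cover in the 8A libraries (5445001 to 5450000) and 0% in both (5450001 to 5455000), against 60% to 76% in 8C. The pair on chromosome 5 is described by the rule that ties go to the lower chromosome number. Its H3K27me3 cover was 96% and 100% in the 8C libraries and 0% in both 8A libraries, and 58% to 100% in the other control libraries. H3K9me3 covered 94% and 76% of it in 8A, 94% and 100% in 8C, and 0% in 4C, BL, ICM and TE. Another 3 of the 13 bins, on chromosomes 20 (66910001 to 66915000), 21 (32995001 to 33000000) and 29 (34575001 to 34580000), missed the 50% threshold with 40% to 48% cover in both 8A libraries.

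The kept bins were short islands for the most part. They formed 1105 runs of adjoining bins, of which 682 were single bins and 249 were pairs. Single bins held 35.1% of the kept bins, runs of 2 or 3 bins held 38.2%, and the 93 runs of 4 or more held 518 bins (26.7%). Within a group, the islands lay in longer H3K27me3 stretches: the run of marked bins around a kept bin had a median length of 15 kb in 2C, 40 kb in GV and 70 kb in BL. Of the kept bins, 43.7% lay in a run of 4 or more marked bins in 2C, and 92.0% did in BL. Of all bins that these groups marked in both lists, 32.1% did so in 2C and 68.4% in BL. Kept bins also lay near each other. Joining those at most 50 kb apart gave 580 clusters, and the 38 clusters with 10 or more held 616 bins (31.7%). The cluster with the most bins held 43 over 480 kb on chromosome 11 (105300001 to 105780000), and the next held 40 over 385 kb on chromosome 5 (118165001 to 118550000); these clusters were picked after the values were seen.

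**Figure D2:**
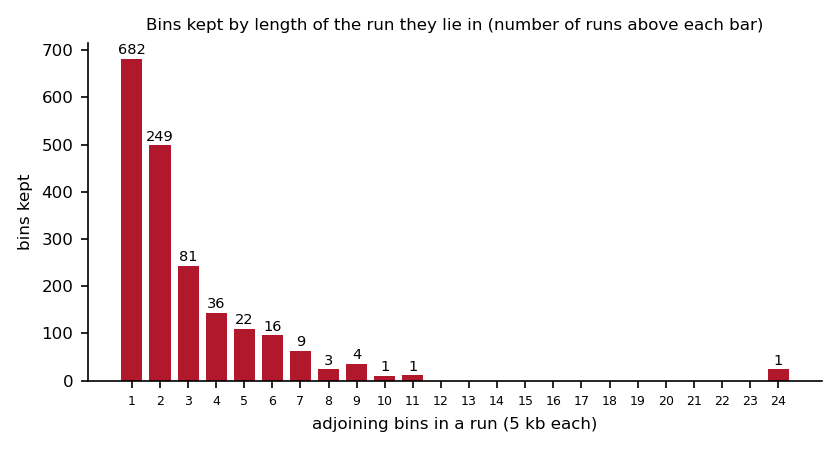
Number of kept bins (y axis) by the number of adjoining 5 kb bins in their run (x axis), with the number of runs above each bar. Single bins make up 682 runs, and 1 run of 24 bins stands apart from the next longest, of 11 bins.

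The kept bins lay towards the chromosome ends. The last 10% of each chromosome's length held 1182 of them (60.9%), the first 10% 241 (12.4%) and the remainder 518 (26.7%), while each of these end zones holds 10.0% of all bins. H3K27me3 bins of the single groups also lay towards the far end, but to a lesser extent: 30.3% (2C) to 48.9% (MO) of a group's bins were in the last 10% and 7.32% (ICM) to 11.6% (2C) in the first. The last 2 Mb held 27.9% of the kept bins and 2.34% of all bins. Cattle autosomes are acrocentric, with the centromere at one end; chromosome ends were taken here as the highest peak end in any list.

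The placement varied among chromosomes. All 29 autosomes held at least 1 kept bin, and 18 had more than 50% of theirs in the last 10%. Chromosomes 5, 2, 11, 16 and 3 had the most (195, 145, 138, 133 and 111), which were 37.2% of the kept bins on 22.7% of the autosomal length. Per Mb, chromosome 29 had the most (2.02, 103 bins) and chromosome 10 the fewest (0.0581, 6 bins), followed by chromosome 7 (0.0632, 7 bins), against 0.780 over all autosomes. Chromosome 10 was also low in the single groups: it holds 4.15% of all bins, 1.78% to 2.48% of a group's H3K27me3 bins and 0.309% of the kept bins. Chromosome 7 holds 4.45% of all bins, 2.31% to 4.75% of a group's H3K27me3 bins and 0.361% of the kept bins. On chromosome 14, 51 of 58 kept bins were in the first 10% and 0 in the last, and on chromosome 16 the ends held 36 (first) and 31 (last) of 133.

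**Figure D3:**
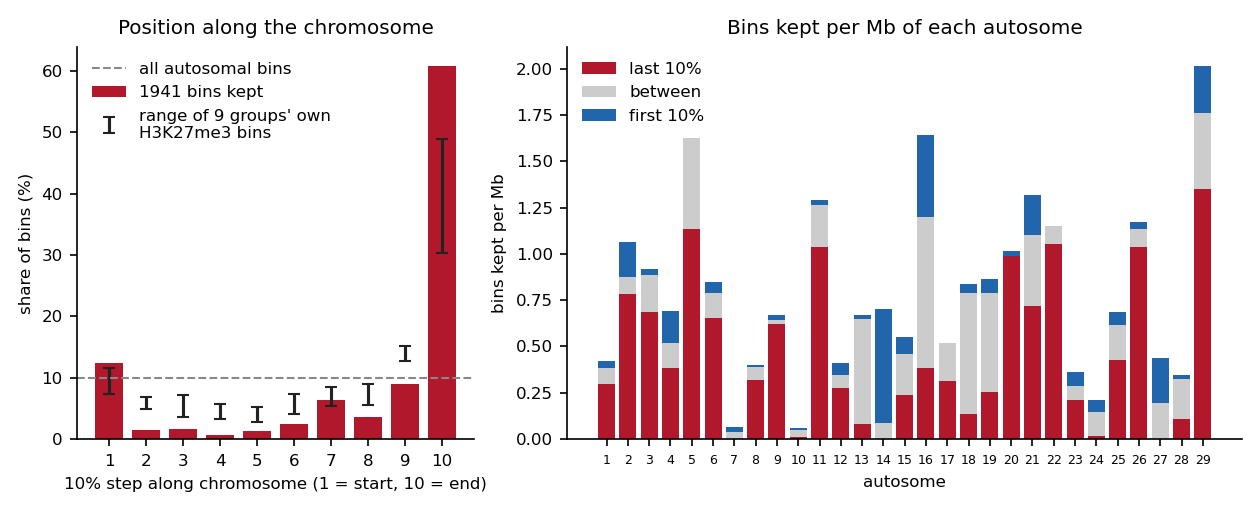
Left, share of bins (y axis, %) in each 10% step along the chromosomes (x axis, 1 at the start) for the 1941 kept bins (bars), all autosomal bins (dashed line) and the H3K27me3 bins of the 9 groups (black ranges, lowest to highest group). Right, kept bins per Mb (y axis) on each autosome (x axis), divided by position; 60.9% of the kept bins are in the last 10%, and chromosome 29 has the most per Mb (2.02).

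H3K9me3 appeared on most of the kept bins between the oocyte and the 4-cell group. H3K9me3 peaks covered 13.2% and 15.5% of their bases in the GV libraries. Cover was 67.4% and 68.1% in 2C, 90.1% and 89.3% in 4C, 91.4% and 90.5% in 8C, and 93.9% in both 8A libraries. It was 76.8% and 86.3% in MO, 81% and 88.5% in BL, 66.6% and 72.4% in ICM, and 92.3% and 90.6% in TE. The GV libraries were below all others, both ICM libraries were below both TE libraries, and the MO and BL libraries overlapped. All autosomal bases were covered at 3.88% to 7.54% in the same libraries. The ICM lists were also shorter over all autosomes, at 3.88% and 5.13%, against 6.16% and 6.20% in TE. Relative to all autosomes, the kept bins were not lower in ICM. The ratio was 15.5-fold in ICM and 14.8-fold in TE (SD of log2 0.198 and 0.0259, n = 2).

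Cover of the kept bins relative to all autosomes, on the log2(percent + 0.01) scale, differed over the 8 control groups (permutation test over 16 libraries, p = 0.0031, adjusted over 4 assays p = 0.00413). Most of that difference lay in GV, where the ratio was 1.91-fold, against 13.1-fold (4C) to 18.1-fold (BL) in the later groups. Without the GV group the range between group means fell from 3.25 to 0.47 on the log2 scale, and the adjusted p was 0.0461. Beside the other H3K27me3 bins of the same group, the kept bins had more H3K9me3 in 8 of 8 control groups, by a mean of 0.86 on the log2 scale (exact sign permutation test over group means, p = 0.00781, the smallest possible, adjusted p = 0.0156). The margin was small at cleavage stages, when the other H3K27me3 bins were also covered (62.5% ± 0.626 in 2C, 84.1% ± 1.47 in 4C, 87.1% ± 0.261 in 8C; SD, n = 2). It was large later, when those bins had 32.0% ± 5.45 in MO, 30.6% ± 5.90 in BL, 26.2% ± 4.75 in ICM and 44.0% ± 0.324 in TE. Among bins of the last 10% alone, compared after the data were seen, the mean was 0.52 with 7 of 8 groups above 0 and the adjusted p of the exact test was 0.0625; in 2C the kept bins there had 68.5% and the others 75.2%.

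Counted by bin, 255 of the kept bins were marked by H3K9me3 in both GV lists (13.1%, against 6.06% of all autosomal bins). The count was 1231 in 2C (63.4%, all bins 3.93%), 1751 in 4C (90.2%, all bins 5.6%), 1792 in 8C (92.3%, all bins 5.64%) and 1868 in 8A (96.2%, all bins 6.13%). It was 1536 in MO (79.1%, all bins 3.97%), 1609 in BL (82.9%, all bins 3.55%), 1264 in ICM (65.1%, all bins 3.21%) and 1775 in TE (91.4%, all bins 5.16%). H3K9me3 was in both lists of all 7 control groups after GV in 715 kept bins (36.8%, against 0.35% of all bins), so 41.0% of the 1742 autosomal bins with that history were kept bins. For bins that were also in neither GV list, the number was 563 (29%, against 0.173% of all bins), and 65.3% of the 862 such bins on the autosomes were kept bins. Of the 715, 126 had H3K9me3 in both lists of all 8 control groups (6.49% of the kept bins, against 0.16% of all bins). Only 2 kept bins were marked by H3K9me3 in no control list (0.103%, against 78.3% of all bins). All 126 were also marked in both 8A lists of H3K9me3.

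H3K4me3 covered a large share of the kept bins through the 8-cell group and almost none from the morula on. Its cover was 49.7% and 59.4% in GV, 45.4% and 44.0% in 2C, 37.7% and 42.8% in 4C, 25.4% and 40.5% in 8C, and 29.8% and 26.0% in 8A. It was 1.2% and 1.13% in MO, 0.649% and 0.744% in BL, 0.584% and 0.609% in ICM, and 0.745% and 0.648% in TE. The libraries up to 8C and those from MO on did not overlap, and the 8A libraries lay within the range of the 8C pair. The 8C libraries were far apart, as they were over all autosomes (2.76% and 4.52%).

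Relative to all autosomes, H3K4me3 on the kept bins was 8.57-fold (GV) to 9.86-fold (2C) higher up to 8C, and 0.361-fold (BL) to 0.635-fold (MO) from the morula on. The difference over the 8 control groups gave p = 2e-05 in the permutation test over 16 libraries (adjusted p = 4e-05). Compared with other H3K27me3 bins of the same group, the kept bins had more H3K4me3 in 4 groups and less in 4, and the exact sign permutation test over the group means gave adjusted p = 0.594. The 4 higher groups were GV (54.6% against 28.8%), 2C (44.7% against 5.34%), 4C (40.3% against 6.73%) and 8C (33.0% against 6.03%). In MO the kept bins had 1.16% and the other H3K27me3 bins 3.39%, in BL 0.697% and 2.01%, in ICM 0.597% and 1.51%, and in TE 0.697% and 1.89%. The average over groups mixes these opposite differences, and its sign turned when only the last 10% was compared (mean log2 ratio -0.30, adjusted p = 0.703 in the exact test, chosen after the data were seen).

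**Figure D4:**
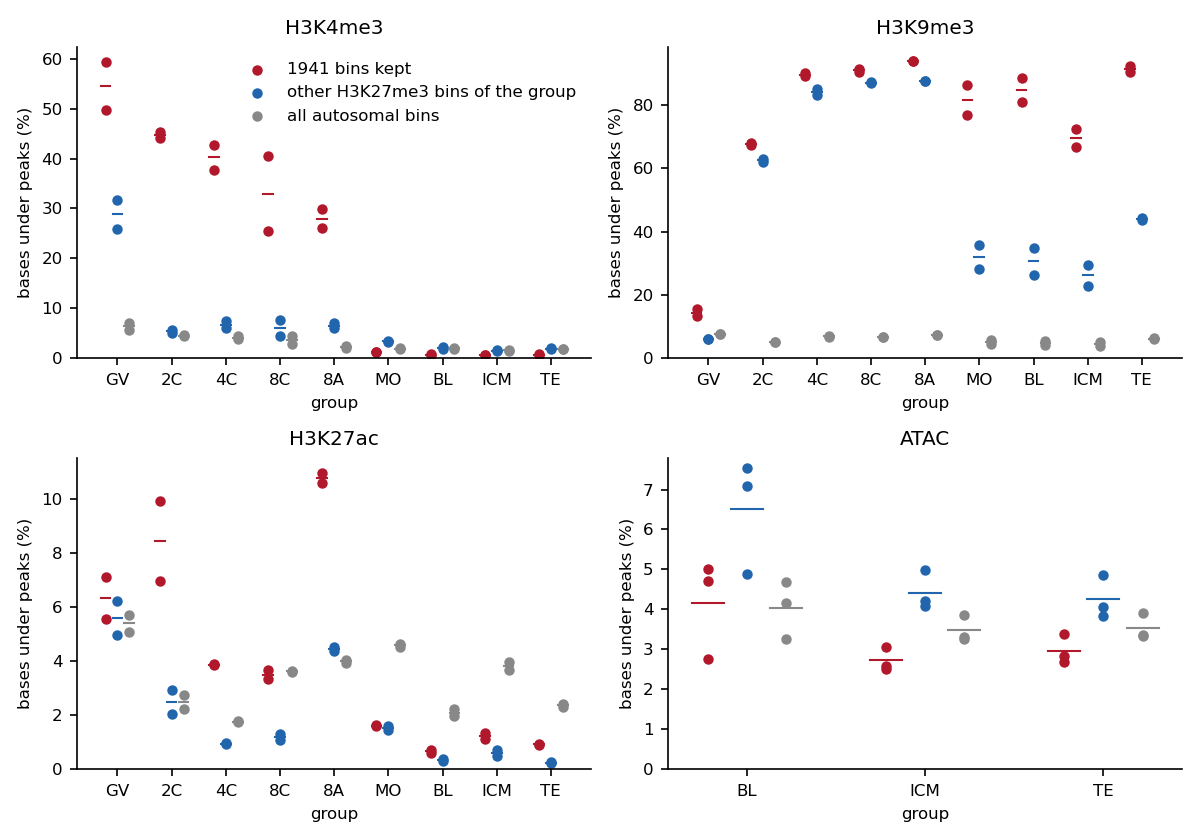
Share of bases under peaks (y axis, %, a separate scale for each assay) by group (x axis) for H3K4me3, H3K9me3, H3K27ac and ATAC; each point is a library, the short line is the group mean, and colours mark the 1941 kept bins, the other H3K27me3 bins of the same group and all autosomal bins. On the kept bins H3K4me3 goes from 25.4% or more up to 8C to under 1.3% from MO on, while H3K9me3 goes from at most 15.5% in GV to 66.6% or more in all later groups.

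Both H3K4me3 lists marked 1004 kept bins in GV (51.7%, against 2.6% of all bins), 792 in 2C (40.8%, all bins 1.95%), 689 in 4C (35.5%, all bins 1.63%), 415 in 8C (21.4%, all bins 1.36%) and 417 in 8A (21.5%, all bins 0.727%). From the morula on, the counts were 13 in MO (0.670%, all bins 0.872%), 6 in BL (0.309%, all bins 1.1%), 8 in ICM (0.412%, all bins 0.804%) and 6 in TE (0.309%, all bins 1.01%). In 350 kept bins H3K4me3 was in both lists of GV, 2C, 4C and 8C (18%, against 0.664% of all bins). A single H3K4me3 base in both 8C lists and none in either MO list was found in 1114 kept bins (57.4%, against 5.22% of all bins). No H3K4me3 base in any MO, BL, ICM or TE list was found in 1827 (94.1%, against 91% of all bins).

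Few kept bins carried H3K4me3 and H3K9me3 together in oocytes, and many did at cleavage. In GV, 950 of the 1004 kept bins with H3K4me3 in both lists lacked H3K9me3 in at least 1 of its lists, 54 had both marks, and 201 had H3K9me3 without H3K4me3. Without a mark means here not marked in both of its lists, so a bin marked in only 1 list counts as without it. In 8C, only 1153 kept bins (59.4%) were marked in neither H3K4me3 list. In 4C, 633 of the 689 with H3K4me3 had both. All 3 marks, H3K27me3 included, lay on 54 kept bins in GV (2.78%), 500 in 2C (25.8%), 633 in 4C (32.6%), 383 in 8C (19.7%) and 401 in 8A (20.7%). The other H3K27me3 bins had all 3 marks in 0.0727% of cases in GV, 0.969% in 2C, 2.72% in 4C, 1.95% in 8C and 2.97% in 8A. From 2C on, H3K27me3 with H3K9me3 and without H3K4me3 was the most frequent combination on the kept bins. It lay on 37.7% of them in 2C, 57.6% in 4C and 72.6% in 8C. The other H3K27me3 bins had it more often in these groups, at 60.2%, 80.9% and 85.3%. From the morula on, 1523 kept bins had it in MO (78.5%), 1604 in BL (82.6%), 1256 in ICM (64.7%) and 1770 in TE (91.2%). The other H3K27me3 bins had it in 27.6% of cases in MO, 24.7% in BL, 19.9% in ICM and 39.3% in TE. From the morula on, those other bins most often had neither mark.

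**Figure D5:**
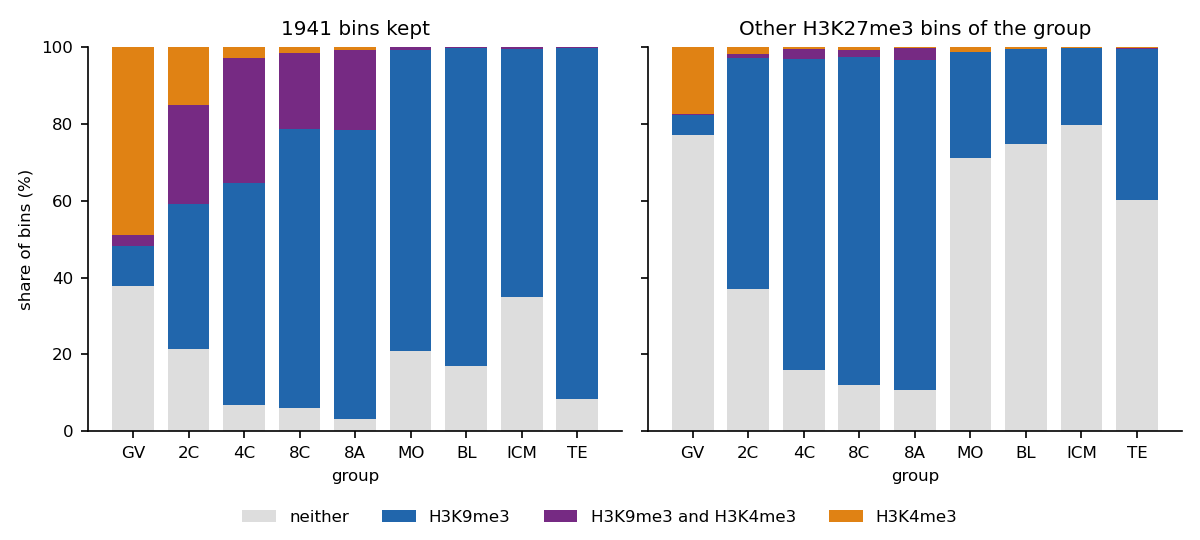
Share of bins (y axis, %) in each group (x axis) that carry, beside H3K27me3, H3K9me3, H3K4me3, both or neither in both libraries; left, the 1941 kept bins (8A included, with 57 kept bins that miss H3K27me3 in 1 or both 8A lists), right, the other H3K27me3 bins of the group. All 3 marks are on 32.6% of the kept bins in 4C and on 2.72% of the others.

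The kept bins that had H3K4me3 in both GV lists (1004) and those that had it in neither (565) differed in their oocyte H3K9me3, which covered 6.58% and 33.1% of their bases. In 4C the 2 subsets had 91.5% and 87.5% H3K9me3. Their H3K4me3 differed still at 4C (58.9% and 13.9%) and 8C (50.4% and 9.35%), and both were low in MO (1.61% and 0.602%). Position also divided the kept bins. Those of the last 10% had 48.2% H3K4me3 in 4C and 77.2% H3K9me3 in ICM, while those outside both end zones had 24.1% and 48.2%. This division was not particular to the kept bins. Other H3K27me3 bins of the last 10% had 11.7% H3K4me3 in 4C and 46.3% H3K9me3 in ICM, against 4.27% and 15.8% outside both end zones. These subsets were formed with the values in view and are given as descriptions.

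H3K27ac was sparse on the kept bins. Its cover was 5.54% and 7.09% in GV, 6.94% and 9.93% in 2C, 3.85% and 3.88% in 4C, and 3.67% and 3.32% in 8C. It was 1.65% and 1.58% in MO, 0.613% and 0.702% in BL, 1.33% and 1.11% in ICM, and 0.926% and 0.897% in TE. The ratio to all autosomes differed over the control groups (permutation test over 16 libraries, p = 1e-05, the smallest that 100000 resamples can give, adjusted p = 4e-05): it was 3.37-fold in 2C and 0.317-fold in BL. Compared with other H3K27me3 bins, the kept bins had more H3K27ac in 8 of 8 groups (mean log2 ratio 1.2, exact sign permutation test, adjusted p = 0.0156), from 1.06-fold in MO to 4.06-fold in 4C. The call was not kept within parts of the chromosomes. Within the last 10% alone the mean was 0.51 with 6 of 8 groups above 0 (adjusted p = 0.266), and outside both end zones it was 0.85 with 6 of 8 (adjusted p = 0.0625, both exact and chosen after the data were seen). The 241 kept bins of the first 10% had a higher mean cover than the 1182 of the last 10% in every group. The gap was widest in GV (28.7% against 2.16%) and narrowest in 2C (12.8% against 8.83%) as a ratio among the control groups.

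Open chromatin was measured in BL, ICM and TE. ATAC peaks covered 2.76%, 4.71% and 5.02% of the kept bases in BL, 2.59%, 3.07% and 2.51% in ICM, and 2.82%, 3.39% and 2.68% in TE. All autosomal bases were covered at 3.25% to 4.69%. The ratio to all autosomes was 1.01-fold in BL, 0.784-fold in ICM and 0.837-fold in TE, and the exact permutation test over 9 libraries gave adjusted p = 0.0393. That call was lost in the exact test without any 1 of the 3 ICM libraries (p = 0.0786 in each case), TE replicate 1 (p = 0.075) or TE replicate 3 (p = 0.0643). The ratio to other H3K27me3 bins was below 1 in all 3 groups (0.617-fold to 0.698-fold), and the smallest p of the exact sign test over 3 groups is 0.25. In 1367 kept bins no ATAC peak of any list covered a base (70.4%, against 70.5% of all bins).

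The α-amanitin group was compared with 8C on the marks that the rule did not use. H3K27ac on the kept bins was 10.6% and 11.0% in the 8A libraries and 3.67% and 3.32% in the 8C libraries, while over all autosomes the means were 3.99% and 3.62%. The log2 ratio of kept bins to all autosomes was 1.48 higher in 8A, and the libraries of the groups did not overlap. H3K27ac on other H3K27me3 bins was also higher, at 4.43% ± 0.103 in 8A and 1.19% ± 0.181 in 8C (SD, n = 2). For H3K4me3 the log2 ratio was 0.44 higher in 8A, but its level was not higher. Cover of the kept bins was 27.9% ± 2.66 in 8A and 33.0% ± 10.7 in 8C, and over all autosomes it was 2.3% and 3.6%. For H3K9me3 the direction also turned with the scaling: cover of the kept bins was 93.9% ± 0.00437 in 8A and 91.0% ± 0.635 in 8C (SD, n = 2), while the log2 ratio to all autosomes was lower in 8A (difference -0.06). In each of the 3 comparisons the exact permutation test of 2 libraries against 2 gave p = 0.33, the smallest this design allows.

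Single regions are described next, beginning with the 10 longest runs, which need not follow the averages. The longest was 120 kb on chromosome 16 (240001 to 360000), and it was wholly covered by H3K27me3 in all 18 lists. H3K9me3 covered none of it in the GV libraries, 89.5% in both 2C libraries and 93.8% to 100% in every later library. H3K4me3 covered 41.3% and 62.3% of it in GV, at most 22.5% from 2C to 8A, and none from MO on. H3K27ac covered 23.0% and 37.6% in GV and at most 0.292% in any other library, and no ATAC peak touched it.

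The second run was 55 kb on chromosome 11 (105325001 to 105380000). Its H3K4me3 was kept up through cleavage: 65.7% and 82.1% in GV, 78.6% and 81.3% in 2C, 74.8% and 78.3% in 4C, 62.6% and 76.5% in 8C, 71.7% and 61.5% in 8A, and 0% from MO on. H3K9me3 was 0% in GV, 81.5% and 82.2% in 2C and at least 97.8% in each later library. The third run, 50 kb on chromosome 29 (49470001 to 49520000), had a like pattern, with H3K4me3 at 67.9% and 82.3% in GV and 0% from MO on, and H3K9me3 at 0% and 21.2% in GV and at least 95.6% from 4C on.

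Runs of 45 kb lay on chromosomes 2 (145001 to 190000), 5 (118325001 to 118370000), 14 (2575001 to 2620000) and 16 (49845001 to 49890000). The one on chromosome 2 had H3K27ac in GV (48.6% and 71.6%) and less in 2C (3.78% and 6.44%) and 4C (12.8% and 5%). Its H3K27ac was 34.2% and 32.9% in 8C and 31% and 29.9% in 8A, with none from MO on. The one on chromosome 14 lost H3K9me3 late: cover was 80.4% and 96.9% in MO, 26.7% and 48.9% in BL, 0% in both ICM libraries, and 95.6% and 40% in TE. It was the only 1 of the 10 with ATAC peaks in all 9 libraries above 7%, between 7.44% and 16.7%. Runs of 40 kb lay on chromosomes 5 (106570001 to 106610000 and 118380001 to 118420000) and 22 (57875001 to 57915000). The run at 106570001 on chromosome 5 differed from the other 9 in the oocyte: H3K9me3 covered all of it in both GV libraries, and no H3K4me3 peak touched it in any of the 18 lists.

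Further regions were picked by their other marks. H3K9me3 was marked in both lists of all 9 groups in 126 kept bins (6.49%, against 0.157% of all bins). The longest such runs were 30 kb, on chromosome 1 (450001 to 480000) and inside the chromosome 5 run just described (106575001 to 106605000). The run on chromosome 1 had at least 90.7% H3K9me3 in every library. That run also had H3K4me3 in GV (61.3% and 80.7%), so both marks overlapped there in oocytes. A base of H3K4me3 in both libraries of all 9 groups was found in 19 kept bins (0.979%, against 2.77% of all bins). The longest such runs were 3 pairs of bins, on chromosomes 2 (121565001 to 121575000), 14 (2580001 to 2590000) and 16 (820001 to 830000). On chromosome 2 all 5 assays had peaks in every library, with median cover of 64.5% (H3K27ac) to 71% (H3K27me3). No filter on places where alignments pile up was applied here, so cover by every assay cannot be read as marks and open chromatin together. No kept bin was free of peaks of every other assay, against 34.6% of all bins.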

How the data were processed

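One peak list per library was deposited. Per the submitters' processing notes, alignment tools were BWA 0.7.9a and SAMtools 1.9, reads were handled with cutadapt 1.8.3, Trim Galore 0.4.0 and Picard 2.26.10, SICER is named, and the build was ARS-UCD1.2; the lists are named for epic2. The sources used here do not give the peak threshold, the controls or the treatment of ambiguous alignments. The deposited score, a whole number per peak of unstated meaning, only ordered peaks within a list when lists were shortened. Peak edges lay on a 200 bp grid (H3K27me3, H3K9me3) or a 50 bp grid (others).

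Starts were read as 0-based and ends as the last base. Cover is the percentage of bases under peaks, compared as log2(percent + 0.01). Other H3K27me3 bins were those marked in both lists of a group and not kept. Tests were permutation tests (100000 resamples over 16 libraries; exact otherwise), two-sided, with Benjamini-Hochberg adjustment over 4 assays, in Python 3.11.15, NumPy 2.4.6 and pandas 2.3.3, tested on simulated lists. Nothing says that libraries of a group came from separate collections. Hence p-values of the tests over libraries measure the spread between libraries, which may be technical. The exact sign tests took group means as units, and BL was made of the same parts as ICM and TE.

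Members, lists and tests were chosen with earlier results of these data known. Named regions are the 10 longest runs, the longest run with H3K4me3 or H3K9me3 in all 9 groups, the longest unmarked in 8A, and the chromosomes with most and fewest kept bins per Mb. Gene names and sequences are not used here, because the gene table at hand is of ARS-UCD2.0.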

Additional observations from a re-analysis of the deposited data

Results flagged for a closer look

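The cover of the kept bins relative to all autosomal bins differed between the control groups for each assay in a permutation test of the group labels, with adjusted p-values over 4 assays of 4e-05 for H3K4me3, 4e-05 for H3K27ac, 0.00413 for H3K9me3 and 0.0393 for ATAC (exact). The H3K4me3 ratio was 8.57-fold or higher in GV to 8C and 0.635-fold or lower in MO to TE, and the H3K9me3 ratio was 1.91-fold in GV and 13.1-fold or higher later.

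The X chromosome was outside the rule but holds bins that meet it. There, 73 of 27802 bins (0.263%) were marked by H3K27me3 in both lists of all 8 control groups, against 0.390% on the autosomes; this difference was not tested. Of these 73, 65 were marked in both 8A lists and 52 carried H3K9me3 in both 4C lists, and their longest run was 30 kb. Among the 1941 kept bins of the autosomes the counts were 1884 and 1751. The shares over all bins of X were not computed.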

How the results depend on the processing

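The 16 results were recomputed under 381 alternatives in all, of which 345 kept direction and side of the threshold or, for untested values, stayed within the counting interval or 1.5 times the count. The counting interval treats kept bins as independent, although adjoining bins can share a peak. It is a yardstick only and measures no spread between libraries. The number of kept bins was 1064 at 75% cover, 3540 with any base, 929 in 10 kb bins, 4644 in 2 kb bins and 937 in lists shortened to 1 covered length. The share marked in both 8A lists was 95.7% at 75% cover and 95.6% when chosen without 8C, and 96.4% to 98.6% leaving out 1 library. The share in runs of 4 or more was 18% (75% cover), 33.6% (25%), 42.7% (any base), 19.6% (10 kb), 49.3% (2 kb), 28.8% (bins moved by 2500 bases), 41.0% (shortened lists) and 26.1% to 30.0% leaving out 1 library, the highest without 2C replicate 1. The first 10% held 15.8% (75% cover), 10.8% (any base) and 16.5% (shortened lists), and the first 2 Mb 9.17% (all bins 2.33%). The last 10% held 63.1% (10 kb) and 66.6% (shortened lists), the last 2 Mb 27.9% (all bins 2.34%) and the last 5 Mb 49.7% (all bins 5.83%). Against other H3K27me3 bins, the H3K27ac mean log2 ratio was 0.53 by bins with any base, 0.51 in the last 10% and 0.85 outside both end zones, H3K9me3 was 0.52 in the last 10%, none with an adjusted p past the threshold, and H3K4me3 reversed to -0.30 in the last 10%. For ATAC the exact p was 0.121 by bins at 50% cover, and 0.00357 to 0.0786 leaving out 1 library. The cause was not tested. Place, single groups left out and 8A libraries left out were chosen after seeing the data.

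For libraries with the same replicate number, the median correlation of deviations between groups was -0.000954 to 0.00824 over the 4 marks. Single pairs of groups ranged most widely for H3K4me3, from -0.0870 to 0.225. Whether libraries with the same number shared a batch or collection was not tested. With the number as a replicate block, permutation p-values were 0.00017 for H3K4me3, 5e-05 for H3K27ac and 0.00095 for H3K9me3, and no call changed. Depth is unknown: the lists limit every statement to peaks past the authors' threshold.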

Other observations

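Bins marked in all 81 lists, over every assay, numbered 3 on the autosomes: chromosome 16 at 820001 to 825000 and 825001 to 830000, and chromosome 27 at 6220001 to 6225000. No filter on places where alignments pile up was applied here. All 3 were among the kept bins, and leaving them out changed no call, although the mean log2 ratio of H3K4me3 on the kept bins to other H3K27me3 bins moved from 0.41 to 0.24.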
